A study of Mus musculus with 2 samples.

Results

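The control GM-CSF BM culture was compared between culture day 5 and culture day 7. The cells came from the single library of cultures that received albumin on day 3. A barcode was kept if its hashtag call was a singlet, if it held 500 or more detected genes and if under 15% of its UMIs (unique molecular identifiers) were mitochondrial. The day 5 hashtag kept 2601 of 2699 singlets and the day 7 hashtag kept 3008 of 3155, so that 5609 of the 25221 kept cells of the series entered the comparison.

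The cultures were started from lineage-negative (Lin-) BM progenitors of C57BL/6 mice, aged 8 to 10 weeks, that were flushed from leg bones. They were grown with 20 ng/ml GM-CSF, with 40 ng/ml in the medium added on day 2. The labels name no allele or transgene, both days received the same albumin, and the difference that the labels name between day 5 and day 7 is the age of the culture. The sources give that age differently: the series' design counts the last harvests at 72 and 96 h after the addition on day 3, which are days 6 and 7, and whether the cells tagged day 5 were taken on day 5 or day 6 was not settled. The time spent with albumin differed along with the culture age. The legend of the study's figure describes staggered starts, so the start date may have differed too. How many mice were pooled is not given in the sources used here. The 5 control days (0, 3, 4, 5 and 7) were tagged with DNA-barcoded antibodies, pooled and sequenced as 1 library, and a second library held the same days of cultures given 300 µM heme-albumin on day 3. There was 1 culture per day and no replicate, so no test was possible, and every interval below covers counting error only (95%, exact for a ratio of Poisson counts or for a binomial share).

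GM-CSF is a growth factor that drives BM progenitors into several myeloid lineages at once. Neutrophils mature early in such cultures and are short-lived, whereas monocyte-derived macrophages and DCs accumulate later. Neutrophil precursors load granules in a fixed order, first the primary granules with elastase and myeloperoxidase and then the secondary granules with lactoferrin and cathelicidin, and DCs that mature switch on Ccr7, the receptor that guides them to lymph nodes.

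The kept cells held 34608096 UMIs on day 5, with a median of 9496 UMIs and 2363 genes per cell, and 41727584 UMIs on day 7, with a median of 12238.5 UMIs and 2977 genes. The ribosomal protein share of a cell's UMIs had a median of 13.2% on day 5 and 20.5% on day 7, and the mitochondrial share 4.18% and 4.79%. The hashtag caller marked 1259 of the 13961 control barcodes as doublets across days, from which about 331 doublets within a day, 2.75% of the singlets, were expected to remain. The control and heme libraries shared 112 barcodes. Markers of other cell types were low in sum. They were at 0.896 and 0.0959 CPM (UMIs of the gene relative to all UMIs of the day) for 5 stromal genes, 12.2 and 10.9 CPM for 6 B cell genes, 11.0 and 3.36 CPM for 7 T or NK cell genes, and 292 and 144 CPM for 8 erythroid genes, of which 3 globin genes were 2-fold lower. Basophil or mast cell markers went from 85.8 to 39.9 CPM, with 3 of 5 counted members lower, and eosinophil markers from 18.3 to 17.1 CPM, with 1 of 2 higher and 1 lower. Both counted plasmacytoid DC markers stayed under 2-fold, and the single counted megakaryocyte marker was Pf4, which rises below. The part of these cells in the results was not tested.

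Levels are given as CPM of the UMIs summed over the kept cells of a day. A gene was counted if its mean over both days was 5 CPM or more, which 9020 genes met, and it was called higher or lower on day 7 at a 2-fold difference. Of these, 178 were higher (1.97%) and 186 were lower (2.06%), which makes 364 in all (4.04%), and the median log2 ratio of all counted genes was -0.04. The strongest differences were mostly falls. A 4-fold difference was reached by 23 genes that rose and 62 that fell, and an 8-fold difference by 5 and 30. The interval excluded equality for all 178 and all 186, which the 2-fold and 5 CPM limits make near certain at these UMI totals. Its nearer bound itself passed 2-fold for 117 and 143 of them.

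Neutrophil granule and alarmin genes fell together between both days. S100a8 and S100a9 encode the subunits of calprotectin, the main protein of the neutrophil cytosol. S100a8 was at 29888 CPM on day 5 and 1707 on day 7, a 17.5-fold fall (17.4 to 17.6), and S100a9 was at 28091 and 1582 CPM, a 17.8-fold fall (17.6 to 17.9). S100a8 had peaked earlier, at 42839 CPM for day 3 and 61522 CPM for day 4, and had started from 786 CPM for day 0. The level on day 7 was thus above that of day 0 and below that of every other day. Of the 14 neutrophil markers, 13 were lower (median log2 ratio -3.70), as were 5 of the 7 counted markers of granulocyte-monocyte progenitors (-2.56).

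All 8 counted members of the neutrophil secondary granule list were lower, with a median log2 ratio of -4.11. Ltf, the iron-binding lactoferrin, went from 1197 to 56.2 CPM, 21.3-fold lower (20.4 to 22.2). Camp, the cathelicidin precursor, went from 1686 to 81.3 CPM, 20.7-fold lower (20.0 to 21.5), and Ngp, a granule protein of immature neutrophils, from 3151 to 163 CPM, 19.3-fold lower (18.8 to 19.8). Lcn2, which captures bacterial siderophores, fell 16.6-fold from 2485 to 149 CPM. The smallest fall in the list was 2.53-fold, in Wfdc21 (1729 to 682 CPM). Cebpe, the transcription factor required for secondary granules, was 3.19-fold lower, at 92.5 and 29.0 CPM.

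The primary granule genes, which precursors express before the secondary ones, were lower for 7 of 8 members (median log2 ratio -2.71). Elane, neutrophil elastase, went from 175 to 26.0 CPM, 6.73-fold lower (6.31 to 7.19), Prtn3, proteinase 3, from 229 to 36.2 CPM, and Mpo, myeloperoxidase, from 36.6 to 8.87 CPM. Their decline began before day 5. From 1446 CPM in the day 0 cells Elane had reached 2465 CPM by day 3 and was down to 694 CPM by day 4. The exception was Ctsc, a protease that activates granule proteases and is also expressed by macrophages, at 289 CPM on day 5 and 412 on day 7.

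Of the 14 mature neutrophil genes, 10 were lower and none was higher (median log2 ratio -1.93). Retnlg, a resistin-like protein of mature neutrophils, fell 6.11-fold to 6.04 CPM, and Csf3r, the G-CSF receptor, 4.53-fold to 4.43 CPM. The other end of the list hardly moved in the summed culture. Mmp8, a collagenase, was at 335 CPM on day 5 and 310 on day 7, and Clec4d at 93.3 and 79.8 CPM. For Mmp8 this level hid opposite differences in separate groups of cells, which are given below. Larger falls also included Chil1, a chitinase-like protein, which went from 100.2 to 3.45 CPM and had the smallest ratio of any gene at 100 CPM or more on either day (29.0-fold lower, 24.6 to 34.5). Ceacam10 and Cd177, surface proteins of neutrophils, fell 18.2-fold and 17.9-fold. Stefin genes, which encode cysteine protease inhibitors, were lower for 4 of 5 members, among them Stfa1 (76.6 to 3.55 CPM) and Stfa2 (164 to 15.1 CPM); these near-identical copies share reads, so the split between them is uncertain.

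**Figure D1:**
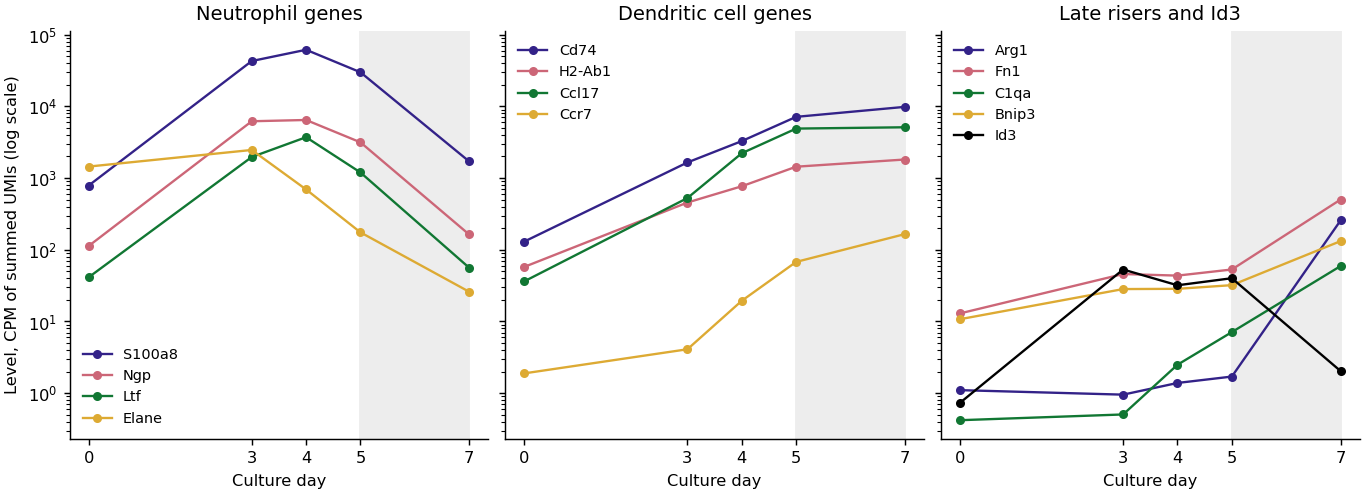
Levels of named genes on the 5 days of the control library, in CPM of summed UMIs on a log axis against culture day; each point is 1 culture and the shaded span is day 5 to day 7. S100a8 falls from 29888 to 1707 CPM in that span, Cd74 goes from 7139 to 9837 CPM, and Arg1, at 1.70 CPM or less up to day 5, reaches 256 CPM while Id3 falls from 40.1 to 2.04 CPM.

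To show the promoters of the genes that fell, the 250 bases before the RefSeq transcription start (GRCm38.p6) were read for S100a8, S100a9, Ngp and Ltf, in the direction of the gene. Capitals mark TTGCNNAA on either strand, a motif bound by C/EBP factors such as the Cebpe product.
S100a8, chr3:90668821-90669070, plus strand: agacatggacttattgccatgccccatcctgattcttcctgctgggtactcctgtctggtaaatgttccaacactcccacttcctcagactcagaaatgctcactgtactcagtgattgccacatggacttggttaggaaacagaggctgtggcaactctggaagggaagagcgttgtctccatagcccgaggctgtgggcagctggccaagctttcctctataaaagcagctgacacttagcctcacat
S100a9, chr3:90695722-90695971, minus strand: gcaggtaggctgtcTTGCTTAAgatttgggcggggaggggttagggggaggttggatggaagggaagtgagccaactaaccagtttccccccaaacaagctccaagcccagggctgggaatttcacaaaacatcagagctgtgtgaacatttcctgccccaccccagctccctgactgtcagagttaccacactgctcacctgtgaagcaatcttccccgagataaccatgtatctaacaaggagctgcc
Ngp, chr9:110419558-110419807, plus strand: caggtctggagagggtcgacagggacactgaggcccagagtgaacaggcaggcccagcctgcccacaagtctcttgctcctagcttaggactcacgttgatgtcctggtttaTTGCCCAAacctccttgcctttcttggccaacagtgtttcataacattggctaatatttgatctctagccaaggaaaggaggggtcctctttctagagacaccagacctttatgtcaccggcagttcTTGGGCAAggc
Ltf, chr9:111019042-111019291, plus strand: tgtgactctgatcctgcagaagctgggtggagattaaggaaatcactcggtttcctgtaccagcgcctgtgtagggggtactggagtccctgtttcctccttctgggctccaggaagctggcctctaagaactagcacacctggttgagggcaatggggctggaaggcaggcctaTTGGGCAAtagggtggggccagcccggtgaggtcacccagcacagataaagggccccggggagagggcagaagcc
Ngp held 2 matches, the first 138 and the second 11 bases before the start. S100a9 held 1, at 236 bases, Ltf held 1, at 75 bases, and S100a8 held none. Among the 12 genes with the smallest ratios, 5 of 13 listed promoters held the motif (Cstdc5, Lcn2, Ltf, Ngp and S100a9), as did 9.56% of all 32851 promoters. Of genes that rose, it was in 1 of 13 promoters (7.69%) of the 12 largest ratios. It was also in 4 of 19 promoters (21.1%) of the genes, listed below, that were higher in 7 or more clusters. A match describes these letters and not a bound site.

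The fall of neutrophil genes was next followed in single cells. S100a8 and S100a9 together made up a small share of the UMIs in one population of cells, with a median of 0.0917% on day 5 and 0.0926% on day 7, while a separate population lay above 3.2%. Cells above 3.2% were 1277 of 2601 on day 5, or 49.1% (47.2 to 51.0), and 104 of 3008 on day 7, or 3.46% (2.83 to 4.17). The same share was 0.790% on day 0, 47.0% on day 3 and 62.4% on day 4. Only 2.09% of the day 7 cells and 6.88% of the day 5 cells lay within a factor of 2 of the limit, which was set after the distribution was seen. By clusters named from marker lists, neutrophil-like cells were 44.7% (42.8 to 46.6) on day 5 and 5.25% (4.48 to 6.11) on day 7. At a coarser clustering (resolution 0.5 in place of 1) the shares were 54.9% and 18.4%. A cluster of 210 day 5 cells and 11 day 7 cells, in which 11 neutrophil markers stood out, stayed unnamed because progenitor markers such as Elane and Prtn3 outnumbered them among its leading genes. Another, led by Car4 and Csf1, with 73 day 5 cells and 399 day 7 cells and 3 neutrophil markers that stood out, also stayed unnamed.

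**Figure D2:**
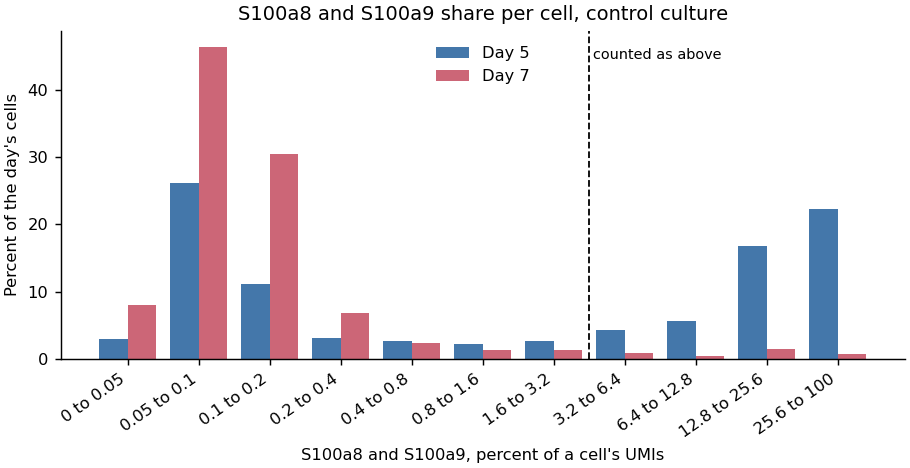
Percent of the cells of day 5 and day 7 (y axis) by the percent of a cell's UMIs that came from S100a8 and S100a9 (x axis, bins of unequal width); the dashed line marks 3.2%. The upper population holds 49.1% of the day 5 cells and 3.46% of the day 7 cells.

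The few S100a8- and S100a9-rich cells of day 7 also differed from those of day 5. Their secondary granule transcripts were lower: Ltf was at 4624 CPM in the 1277 cells of day 5 and 1873 CPM in the 104 of day 7, a ratio of 0.405 (0.381 to 0.431), and Camp had a ratio of 0.444 (0.422 to 0.467). Retnlg, by contrast, was at 143 and 349 CPM, a ratio of 2.45 (2.09 to 2.85), and Ly6g was at 232 and 329 CPM. For Cxcr2, the chemokine receptor of circulating neutrophils, the ratio of 1.37 had an interval that spanned 1 (0.854 to 2.10), and so did the ratio of 0.786 for Csf3r (0.518 to 1.15). These day 7 cells were shallower, with a median of 3744.5 UMIs against 5398. They were also a more mixed group: 69.2% of them lay in neutrophil-like clusters, against 80.7% on day 5, and transcripts of other cells were higher in them, with Cd74 at 400 and 1901 CPM, Arg1 at 1.03 and 136 CPM, Ccr2 at 13.5 and 143 CPM and Fn1 at 5.93 and 105 CPM. The part of these other cells in the ratios above was not tested.

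In the remaining cells, secondary granule transcripts were low on both days. Camp was at 43.2 and 43.4 CPM and Ltf at 33.3 and 31.8 CPM, with ratios of 1.01 (0.933 to 1.09) and 0.955 (0.876 to 1.04). Ngp was at 62.4 and 56.8 CPM, a ratio of 0.910 whose interval lay below 1 (0.854 to 0.971). All days were captured in the same library, and a cluster led by Ccl5, Fscn1 and Ccr7, which should lack granule transcripts, held S100a8 at 422 and 456 CPM. After thinning each cell to 3000 UMIs, 36.2% of day 5 cells and 10.8% of day 7 cells had an Ltf UMI, against 9.72% and 8.77% in that cluster. The day 7 share was therefore close to that of the cluster, and the source of these UMIs was not tested. For Ly6g the shares were 17.2% and 1.52%, against 0 of 72 cells, which allows up to 4.17%, and 1.00% in the cluster. Thinning left out 291 and 175 shallower cells.

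Some mature DC genes were higher on day 7, and no counted conventional DC marker was. Of 12 mature DC markers, 4 were higher and none lower (median log2 ratio 0.65). Of the 16 counted members of the DC maturation list, 3 were higher and none lower, with a median log2 ratio of 0.59. Ccr7 went from 67.7 to 165 CPM, 2.44-fold higher (2.33 to 2.56), after 1.89, 4.10 and 19.4 CPM on days 0, 3 and 4. Il4i1, a secreted amino acid oxidase, went from 114 to 228 CPM and Cacnb3, a calcium channel subunit used as a marker of mature DCs, from 15.7 to 43.9 CPM. Members that stayed under 2-fold included Fscn1, the actin-bundling protein of DC dendrites, at 57.1 and 86.8 CPM, Cd83 at 32.7 and 62.0 CPM, and the costimulatory Cd40, at 9.85 and 8.51 CPM. Ccr7 and Il4i1 were also under 2-fold in the cells below the S100a8 and S100a9 limit, with ratios of 1.91 (1.82 to 2.00) and 1.54. Among those cells, 1 of the 16 DC maturation genes and 2 of the 12 mature DC markers were 2-fold higher and none was 2-fold lower.

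Cells with a Ccr7 UMI, at 3000 UMIs each, were 6.88% (5.88 to 7.99) on day 5 and 20.5% (19.0 to 22.0) on day 7, against 1.15% and 4.76% in S100a8- and S100a9-rich cells; without thinning they were 8.46% and 23.8%. The corresponding shares for Fscn1 were 4.81% and 12.7%. Clusters named mature DC-like held 7.42% (6.44 to 8.50) of the day 5 cells and 23.7% (22.2 to 25.3) of the day 7 cells. Their share of the cells below the S100a8 and S100a9 limit was 14.4% (12.5 to 16.4) and 24.6%, so the share also differed when S100a8- and S100a9-rich cells were left out of the denominator. Within the cluster led by Ccl5, Fscn1 and Ccr7, Ccr7 itself was at 1177 CPM on day 5 and 991 on day 7 and Fscn1 at 1157 and 557 CPM, and within the cluster led by Il4i1 and Nr4a3 Ccr7 was at 461 and 487 CPM. Cells with Ccr7 were thus more frequent on day 7, while its level in these clusters stayed under 2-fold. The ratio was also standardised over the 10 of 17 clusters with 50 or more cells on both days, each given the same weight on both days (4.03% to 16.6% by its share of UMIs), which left out 1014 day 5 cells and 527 day 7 cells. The median of the DC maturation list was then -0.12, and 57 (0.632%) of all counted genes were higher and 41 (0.455%) lower.

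Among 5 counted conventional DC markers, no gene reached 2-fold in either direction (median log2 ratio 0.06). Ccl17, a chemokine for CCR4-bearing T cells, was at 4897 and 5108 CPM after 526 on day 3 and 2219 on day 4. Zbtb46, a transcription factor of the DC lineage, was at 13.4 and 13.2 CPM, and Flt3, the growth factor receptor of conventional DCs, at 1.07 and 0.815 CPM. Itgax, which encodes CD11c, was at 180 and 240 CPM. The transcription factor Irf8 was 2.27-fold higher, at 70.9 and 161 CPM.

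All 11 MHC class II genes had ratios above 1, with a median log2 ratio of 0.41, but 2 of them, H2-Oa and H2-Ob, reached 2-fold. These encode HLA-DO-type subunits that restrain peptide loading; H2-Oa went from 21.7 to 54.8 CPM. With each cell weighted equally the median log2 ratio of the list was 1.02. Over the summed UMIs, the members other than H2-Oa and H2-Ob stayed under 2-fold. Cd74, the invariant chain, was at 7139 and 9837 CPM, H2-Ab1, a beta chain, at 1440 and 1815 CPM, and Ciita, the activator of the whole family, at 63.3 and 82.8 CPM. In the cells below the S100a8 and S100a9 limit, H2-Ab1 was at 1905 CPM on day 5 and 1834 on day 7, a ratio of 0.963 (0.952 to 0.974), Cd74 had a ratio of 1.05, and the median log2 ratio of the list was 0.02. Over all cells, an H2-Ab1 UMI was in 39.7% of day 5 cells and 68.2% of day 7 cells at 3000 UMIs. It was in 10.4% and 22.2% of the S100a8- and S100a9-rich cells, which were 1041 of 2310 cells on day 5 and 63 of 2833 on day 7. Both days' shares thus cover unlike mixes of cells, and the part of this mix in the difference was not tested. The same holds for the other shares of cells with a UMI.

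Macrophage genes rose, led by complement C1q. Of 12 counted macrophage markers, 7 were higher and none lower (median log2 ratio 1.29). C1qa, C1qb and C1qc encode the chains of C1q, which opsonises dying cells and is made by tissue macrophages. C1qa went from 7.11 to 59.2 CPM, 8.33-fold higher (7.31 to 9.54), C1qb from 48.6 to 209 CPM, 4.31-fold (4.09 to 4.54), and C1qc from 18.8 to 86.2 CPM, 4.58-fold (4.22 to 4.99). Mertk, a receptor for dying cells, went from 3.99 to 11.9 CPM, Trem2, a lipid-sensing receptor, from 76.6 to 156 CPM, and Apoe, a lipid carrier, from 3.03 to 8.87 CPM. Apoe was among the 10 leading genes of the unnamed cluster led by Car4 and Csf1, in which 3 neutrophil markers stood out. It went from 1 to 177 UMIs there, and was at 4 and 3 UMIs in a cluster led by Cd209a and Ckb. The rise of Apoe was thus not particular to clusters in which macrophage markers stood out. The remaining 5 counted markers stayed under 2-fold. Adgre1, which encodes F4/80, was at 58.3 and 66.3 CPM, Csf1r, the M-CSF receptor, at 119 and 159 CPM, and Mrc1, the mannose receptor, at 39.5 and 60.4 CPM.

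Cells with a C1qb UMI at 3000 UMIs were 5.58% (4.68 to 6.60) on day 5 and 24.3% (22.8 to 25.9) on day 7, against 1.39% and 0.752% in the cluster led by Ccl5, Fscn1 and Ccr7. The single cluster that took the name macrophage-like, led by Pltp, Retnla and C1qa, held 0.538% and 8.91% of the cells. In 3 other clusters, of 511, 182 and 344 cells, macrophage markers also stood out most often (3, 4 and 3 of them), but another type had as many or more among the leading genes, so they stayed unnamed. One of these, led by Arg1, Slc7a2 and F13a1, held none of the 2601 day 5 cells, which allows a share of up to 0.115%, and 6.05% (5.22 to 6.96) of the day 7 cells. These shares rest on transcripts that themselves differed between both days and are descriptions only.

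Arg1 had the largest ratio of any gene at 100 CPM or more on either day. Arginase 1 splits arginine into ornithine and urea and marks alternatively activated and tissue-repair macrophages. Up to day 4 its level lay between 0.954 and 1.39 CPM, and it was at 1.70 CPM on day 5 (59 UMIs) and at 256 CPM on day 7 (10688 UMIs), 150-fold higher (116 to 198). The gene lies at chr10:24915221-24927484 on the minus strand (GRCm38). Cells with an Arg1 UMI at 3000 UMIs were 0.476% on day 5 and 12.5% (11.3 to 13.8) on day 7, against 0 of 72 cells, which allows up to 4.17%, and 0.251% in the cluster led by Ccl5, Fscn1 and Ccr7. Slc7a2, the arginine transporter that feeds this enzyme, was 6.69-fold higher, at 12.5 and 83.7 CPM. The mitochondrial arginase Arg2 was lower in all cells, at 19.4 and 5.18 CPM, but not by 2-fold in the cells below the S100a8 and S100a9 limit. Arg2 was among the 10 leading genes of a neutrophil-like cluster with 394 day 5 cells and 94 day 7 cells.

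Fn1, the matrix protein fibronectin, was second, at 53.1 and 501 CPM (9.44-fold higher), after 43.6 CPM on day 4. On day 7, cells with an Fn1 UMI were 28.1% at 3000 UMIs (26.4 to 29.8), against 1.75% in the same cluster. Pltp, a phospholipid transfer protein that was singled out after its values were seen, went from 2.63 to 62.6 CPM, 23.8-fold higher (19.3 to 29.7). The 12 largest ratios among genes at 100 CPM or more also included Tnfrsf9, the costimulatory receptor 4-1BB, at 48.7 and 237 CPM, and the chemokines Ccl5 (218 and 865 CPM), Pf4 (64.0 and 253 CPM) and Cxcl3 (34.6 and 118 CPM). Klk1b11, a glandular kallikrein whose near-identical relatives make its counts uncertain, was at 50.5 and 199 CPM. Tmem176a and Tmem176b, which encode membrane proteins, were 3.83-fold and 3.81-fold higher, and Car4, a membrane carbonic anhydrase, 3.29-fold. Tmem176b was among the 10 leading genes of the mature DC-like cluster led by Ccl5, Fscn1 and Ccr7. Bnip3, a mitophagy receptor induced by low oxygen in many cells, was 4.11-fold higher (3.85 to 4.39), at 32.1 and 132 CPM.

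**Figure D3:**
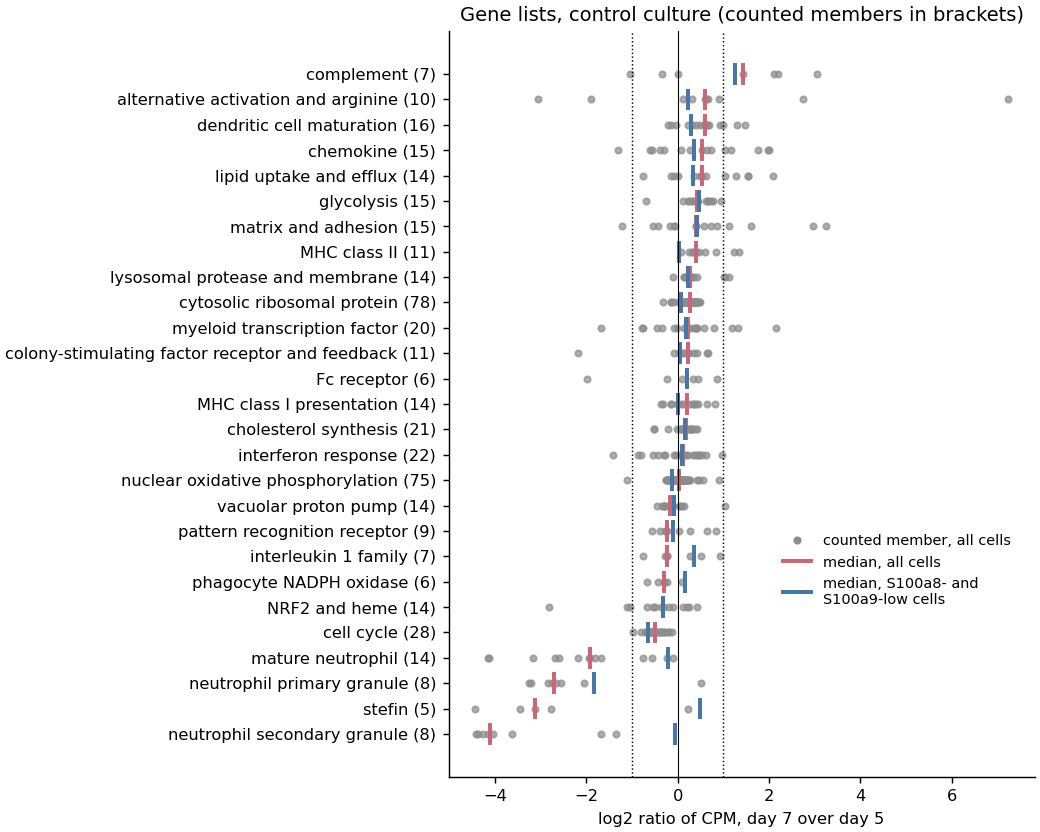
log2 ratio of CPM, day 7 over day 5 (x axis), for the counted members (grey points) of each gene list with 5 or more of them; red bars are the medians over all cells and blue bars the medians in cells with under 3.2% of UMIs in S100a8 and S100a9. The secondary granule median lies at -4.11 in all cells and at -0.05 in those cells, while the complement median stays above 1 in both.

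The remaining lists moved less. All 28 cell cycle genes were lower without any reaching 2-fold (median log2 ratio -0.50). Mki67, a marker of dividing cells, was at 121 and 69.2 CPM, and cells with an Mki67 UMI at 3000 UMIs were 19.2% and 12.2%, against 0 of 72 cells, which allows up to 4.17%, and 1.00% of the cluster led by Ccl5, Fscn1 and Ccr7. Of 14 counted lipid uptake and efflux genes, 5 were higher, among them the fatty acid-binding Fabp5 (793 and 1925 CPM), and of 14 lysosomal genes 3 were higher, the proteases Ctss, Ctsl and Lgmn. In the cells below the S100a8 and S100a9 limit, 4 of the lipid genes were 2-fold higher and none of the lysosomal genes was. Of 15 chemokines, 5 were higher and Cxcl10 was lower. Of 15 matrix and adhesion genes, 4 were higher and Vcan, a proteoglycan of monocytes, was lower, at 68.1 and 29.4 CPM.

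The glycolysis genes were called in neither direction, although 14 of 15 had ratios above 1 (median log2 ratio 0.42), with Pgk1 at 428 and 825 CPM and Gapdh at 1700 and 2267 CPM. Of 14 NRF2 and heme genes, none was higher and 3 were lower, namely Slc40a1, Nqo1 and Gsr. In the cells below the S100a8 and S100a9 limit, none of this list was 2-fold lower. Slc40a1, the iron exporter ferroportin, went from 21.2 to 3.02 CPM in all cells, and Hmox1, heme oxygenase 1, was at 62.6 and 84.2 CPM. Among 20 myeloid transcription factors, 3 were higher, among them Bhlhe41 and Irf8, and Cebpe was lower, and Spi1, which encodes PU.1, was at 458 and 359 CPM. Of these factors, 2 were 2-fold higher below the S100a8 and S100a9 limit and none was 2-fold lower. Of 10 alternative activation and arginine genes, Arg1 and Slc7a2 were higher and Chil3 and Arg2 lower, Chil3 falling 8.33-fold from 2825 to 339 CPM. In the cells below the S100a8 and S100a9 limit, 3 genes of this list were 2-fold higher and none was 2-fold lower.

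A single gene was lower in each of the Fc receptor (Fcgr4), colony-stimulating factor receptor (Csf3r), interferon response (Cmpk2) and nuclear oxidative phosphorylation (Ndufa4) lists, and 1 was higher in the vacuolar proton pump list (Atp6v0d2). No member was called in the MHC class I presentation, cholesterol synthesis, interleukin 1 family, pattern recognition receptor, phagocyte NADPH oxidase and cytosolic ribosomal protein lists. The ribosomal protein genes had a median log2 ratio of 0.26, with 74 of 78 above 0. Of the complement list, C1qa, C1qb, C1qc and C3ar1 were higher and C3 was lower. In the cells below the S100a8 and S100a9 limit, no complement, Fc receptor, colony-stimulating factor receptor or interferon response gene was 2-fold lower. There, 4 complement genes were 2-fold higher, no vacuolar proton pump gene was, and 1 nuclear oxidative phosphorylation gene was 2-fold lower.

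Monocyte markers split. Ly6c2, a surface antigen of classical monocytes and neutrophil precursors, fell 3.78-fold from 691 to 183 CPM, whereas Ccr2, the receptor that brings monocytes into tissue, rose 2.11-fold (2.05 to 2.17) from 203 to 427 CPM. In the cells below the S100a8 and S100a9 limit, Ccr2 stayed under 2-fold, with a ratio of 1.62 (1.57 to 1.66). The ratio of Ly6c2 there was 0.481 (0.466 to 0.496). Cells with a Ccr2 UMI at 3000 UMIs went from 21.4% to 46.8%, against 0 of 72 cells, which allows up to 4.17%, and 1.25% of the cluster led by Ccl5, Fscn1 and Ccr7. F13a1, a transglutaminase of monocytes, was also higher, with a log2 ratio of 1.40 and 34.2 CPM on day 7.

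Every ratio was then taken again over the cells with under 3.2% of UMIs in S100a8 and S100a9. These still included neutrophil-like cells, 9.97% of them on day 5 and 2.96% on day 7. Of the 9020 genes, 138 (1.53%) were then higher and 73 (0.809%) lower on day 7. Of the 178 genes higher in all cells, 101 were also higher here and none had a ratio below 1. Of the 186 lower genes, 48 were also lower, and 46 had a ratio above 1. The rises of Arg1 (1.94 and 258 CPM), Fn1 (69.1 and 506 CPM), C1qa (9.29 and 60.0 CPM) and Bnip3 (32.5 and 132 CPM) stayed past 2-fold. The primary granule list stayed lower here, with 7 of 8 members 2-fold lower (median log2 ratio -1.83). So did 5 of the 7 counted granulocyte-monocyte progenitor markers (-1.85). Elane was at 87.5 and 23.7 CPM. Over all cells of the unnamed cluster led by Thy1 and Phgdh it was at 169 and 67.3 CPM. In the neutrophil-like cluster led by Gstm1 and Il1f9 Elane was at 32.2 and 37.0 CPM. The part of the remaining neutrophil-like cells in these falls was not tested.

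Some genes that stayed under 2-fold in the whole culture were 2-fold or more higher on day 7 among these cells. Thbs1, the matricellular thrombospondin 1, was at 647 and 574 CPM in all cells and at 227 and 555 CPM below the limit, a ratio of 2.44 (2.37 to 2.51). Klf2, a zinc-finger factor that restrains inflammatory genes, had a ratio of 0.756 in all cells and 2.66 (2.41 to 2.93) below the limit. In S100a8- and S100a9-rich cells Thbs1 was at 1884 and 2000 CPM and Klf2 at 232 and 221 CPM. Both genes were chosen after their values were seen. The mix of cells also differed between the days. The unnamed cluster led by Car4 and Csf1, with Thbs1 among its 10 leading genes, held 2.81% of all kept day 5 cells and 13.3% of those of day 7. The part of this mix in the ratios of Thbs1 and Klf2 was not tested.

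**Figure D4:**
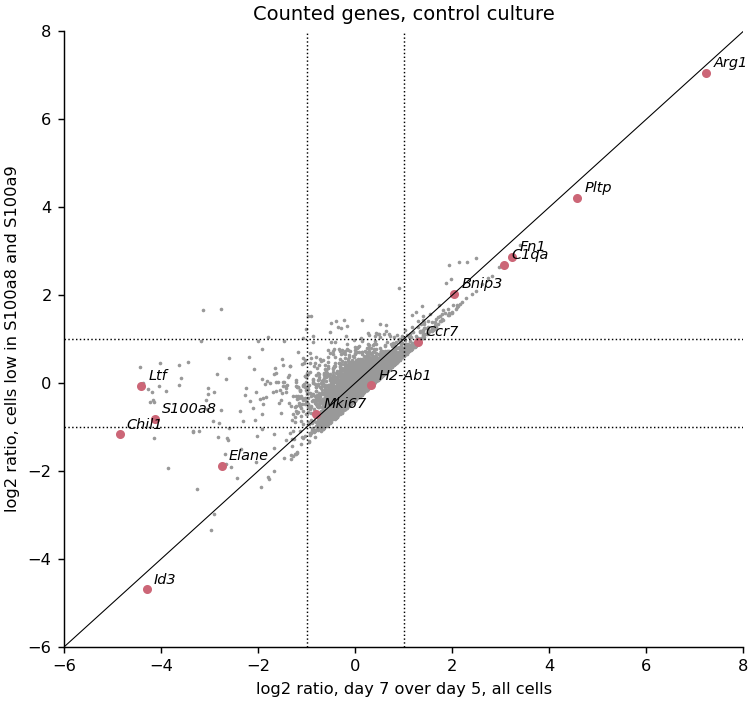
Each grey point is a counted gene, with its log2 ratio of day 7 over day 5 in all cells (x axis) and in cells with under 3.2% of UMIs in S100a8 and S100a9 (y axis); dotted lines mark 2-fold and the solid line equality. Ltf and S100a8 leave the diagonal, while Arg1, Pltp, Fn1 and Id3 lie near it. S100a8 and S100a9 set the limit, so their own place on the y axis is constrained by that choice and carries no result.

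A fall of another kind was seen in Id3, an inhibitor of E-protein transcription factors induced by TGF-beta and BMP signals, which was also singled out after its values were seen. Its level was 53.1, 32.0 and 40.1 CPM for days 3 to 5 and 2.04 CPM for day 7, a 19.7-fold fall (15.8 to 24.8). Below the S100a8 and S100a9 limit it was at 53.3 and 2.06 CPM. Its relative Id1 fell 2.56-fold, from 88.6 to 34.7 CPM.

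The ratio was then read within each of the 10 clusters that held 50 or more cells on both days, a cluster being used for a gene if it held 20 or more of its UMIs. Of 8902 genes with 5 or more usable clusters, 20 (0.225%) were 2-fold or more higher in at least 7 clusters and 1 (0.0112%), Id3, was lower in at least 7. Those that rose included Arg1, Pltp, C1qa, Zfp395, Egln3, Vegfa, Fn1, Klk1b11, Sdc1, C1qb, C1qc, Bnip3, Tgm2, Scd1, AA467197, Aldoc, Dhrs3, Ankrd37 and Palld. They were chosen by this pattern, so the counts describe them.

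Egln3, a prolyl hydroxylase that senses oxygen, was higher in 10 of 10 clusters, as was Vegfa, the vascular growth factor. In the cluster led by Ccl5, Fscn1 and Ccr7 the Egln3 ratio of 2.32 rested on 3 and 33 UMIs, and its interval spanned 1 (0.728 to 11.8). In a cluster led by Pf4 and Tgfbi, Egln3 was at 2.47 and 88.7 CPM, and in a neutrophil-like cluster led by Gstm1 and Il1f9 at 38.6 and 253 CPM. That cluster had no neutrophil marker among its 10 leading genes, and its cells differed between the days: S100a8 was at 62834 and 18891 CPM and Ngp at 690 and 179 CPM in it, while Csf1r was at 167 and 222 CPM, and whether its 94 day 7 cells and 394 day 5 cells are of the same type was not tested. Bnip3 was higher in 9 of 10 clusters and Aldoc, a glycolytic aldolase, in 9 of 10. They were thus higher in clusters with unlike leading genes, including the cluster led by Ccl5, Fscn1 and Ccr7, where Bnip3 was at 21.4 and 59.6 CPM.

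Arg1 was higher in all 8 clusters where it could be used. In the cluster led by Pf4 and Tgfbi it went from 4.11 CPM (5 UMIs) to 656 CPM, in the neutrophil-like cluster from 1.59 CPM (3 UMIs) to 231 CPM (a ratio of 145, interval 48.0 to 720), and in a cluster led by Pf4 and Wfdc17 from 9.24 CPM (11 UMIs) to 151 CPM. By contrast, on day 7 Arg1 was at 0.451 CPM (2 UMIs) in the cluster led by Ccl5, Fscn1 and Ccr7 and at 0.575 CPM (2 UMIs) in a dividing cluster led by Hist1h1b.

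C1qb was higher in 8 of 9 clusters and level in the one led by Ccl5, Fscn1 and Ccr7 (5.35 and 5.19 CPM). In a cluster led by Cd209a and Ckb, with H2-Ab1 among its leading genes, C1qb was at 116 and 431 CPM and C1qa at 19.8 and 121 CPM. H2-Ab1 itself was at 4680 and 4526 CPM there. Id3 fell from 83.6 to 2.49 CPM in the same cluster, from 94.9 to 4.31 CPM in one led by Ccl4 and Ccl2, and from 72.4 to 2.59 CPM in the dividing cluster.

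**Figure D5:**
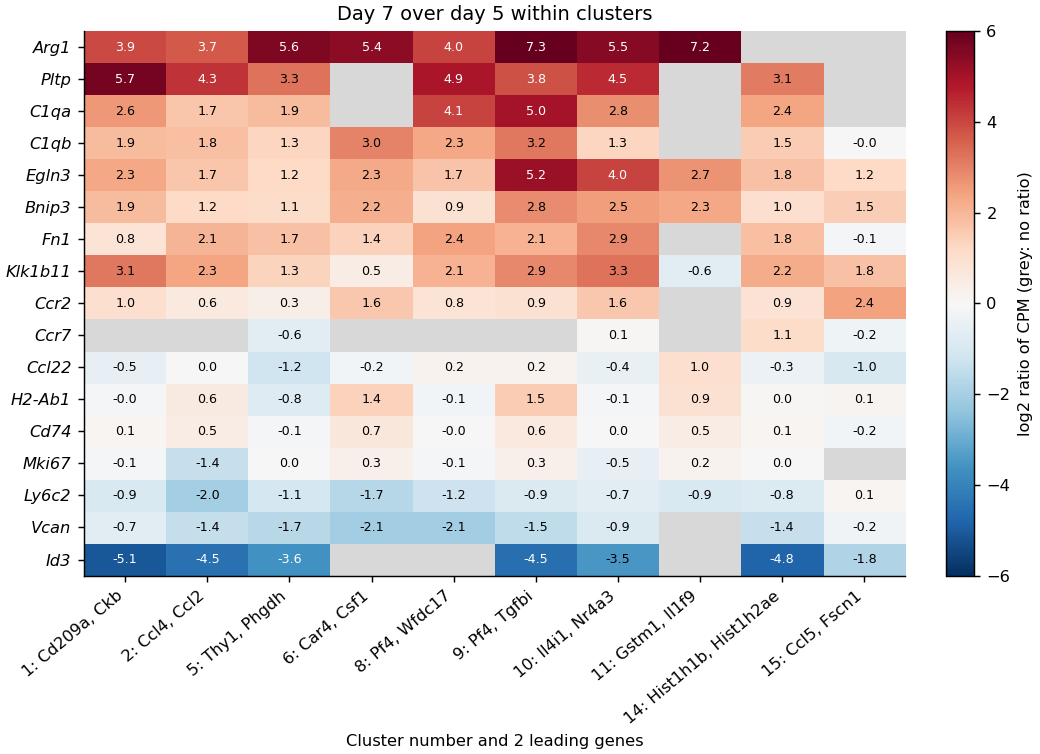
log2 ratio of CPM, day 7 over day 5, for named genes (rows) in the 10 clusters with 50 or more cells on both days (columns, named by number and 2 leading genes); red is higher on day 7, blue lower, the printed values are the log2 ratios (colours stop at 6), and grey means under 20 UMIs or none on a day. Arg1, Egln3 and Bnip3 are above 0 in every cluster with a value, Id3 is below 0 in all 7 of its own, and Cd74 stays between -0.17 and 0.69.

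Promoter bases are shown for Bnip3 and Egln3 as examples of genes higher in 9 or more clusters that had an entry with the motif below; Vegfa, higher in 10, also had one and is not printed. The 250 bases before the RefSeq start (GRCm38.p6) are given in the direction of the gene, with ACGTG, the core of the hypoxia response element, in capitals on either strand.
Bnip3, chr7:138909507-138909756, minus strand: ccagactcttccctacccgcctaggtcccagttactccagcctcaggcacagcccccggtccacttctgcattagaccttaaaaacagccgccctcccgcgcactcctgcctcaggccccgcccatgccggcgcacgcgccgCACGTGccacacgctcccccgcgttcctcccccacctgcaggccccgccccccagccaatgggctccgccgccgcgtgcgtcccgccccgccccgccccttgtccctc
Egln3, chr12:54203875-54204124, minus strand: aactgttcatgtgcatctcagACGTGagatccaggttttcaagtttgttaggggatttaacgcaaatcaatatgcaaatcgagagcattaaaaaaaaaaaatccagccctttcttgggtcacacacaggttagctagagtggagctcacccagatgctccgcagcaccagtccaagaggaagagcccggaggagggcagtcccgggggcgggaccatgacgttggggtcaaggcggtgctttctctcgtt
Bnip3 held 2 matches that overlap on opposite strands, 108 and 107 bases before the start, and Egln3 held 1, at 229 bases. Of the 20 genes above, 13 had entries, and 6 of their 19 promoters held ACGTG (AA467197, Ankrd37, Bnip3, Egln3, Palld and Vegfa), as did 16.6% of all promoters. The motif was also in 4 of 13 promoters of the 12 genes with the smallest ratios (30.8%). Arg1, Fn1 and C1qa had no entry.

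The heme library was read over the same days as a second set of cultures. In it, 68 of the 9020 genes (0.754%) were 2-fold or more higher on day 7 than on day 5 and 182 (2.02%) lower. S100a8 fell from 21876 to 7598 CPM, a smaller step than in the control, and Ltf was at 503 and 496 CPM, Camp at 421 and 423 CPM and Ngp at 2142 and 2053 CPM. Arg1 was at 0.252 and 2.09 CPM and C1qb at 12.5 and 6.82 CPM. Ccr7 went from 58.2 to 19.9 CPM and Fscn1 from 45.2 to 5.55 CPM. Bnip3 rose there too, from 45.3 to 93.2 CPM. Id3 was at 37.8 CPM on day 3 of that library but already at 4.81 on day 4 and 2.92 on day 5. The difference between libraries was not tested, as each held 1 culture per day.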

How the data were processed

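Mouse BM cultures were profiled by droplet single-cell RNA-seq (10x Genomics 3' v3.1) with hashtag antibodies. The deposited matrices hold UMI counts per gene and barcode, which the authors made with Cell Ranger (version 4.0.0 in their methods, 5.0.0 in the matrix header) on GRCm38.p6, and the deposited calls of hashtag and singlet were made with Seurat 3.2.3. The sources used here differ on the schedule: the labels give harvests on days 4, 5 and 7, the design text 24, 72 and 96 h after the addition on day 3 (days 4, 6 and 7), and the legend of the study's figure describes staggered starts. Days are those of the hashtag names. If starts were staggered, culture age and start date cannot be told apart.

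Members and gene lists were chosen with earlier results of these data known. Counts were summed per day over kept cells and divided by the day's total. A ratio of day 7 over day 5 was called at 2-fold for genes with a mean of 5 CPM or more, with an exact 95% interval from Python 3.11.15 and scipy 1.17.1. Shares have Clopper-Pearson intervals, and a share of 0 allows up to 3 counts of the total. UMIs are molecules of single cells, and intervals and floors cover counting error only. The code was tested on simulated data.

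Named genes were the 12 largest and 12 smallest ratios among genes at 100 CPM or more on either day (mitochondrial, ribosomal protein, Gm and Rik genes left out), a preset list, and, per function list, the 2 most abundant members and those with the extreme ratios; others are said to have been chosen after their values were seen. Cells of both days were clustered with scanpy 1.11.5 (2000 variable genes, 15 components, 15 neighbours, Leiden resolution 1). A cluster took a type's name if at least 3 of that type's markers stood out in it and no other type had as many, and if, among its 10 leading genes, no other type had a marker or that type had more than any other, a rule tightened after the clusters were seen. Doublets were treated only by leaving out the deposited cross-hashtag calls. Alternatives used TMM (edgeR 4.0.16), DESeq2 1.42.0 size factors, other filters, the study's further cell limits (at most 5000 genes, under 30% ribosomal protein UMIs), equal weight per cell, other cluster settings and other thinning; 2 more were added after seeing the data. Gene positions are from GENCODE and promoters from RefSeq, both GRCm38. One gene is not reported here.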

Additional observations from a re-analysis of the deposited data

Results flagged for a closer look

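Only the named genes were searched for opposite differences in the 2 libraries, and the other counted genes were not. Among the named genes, those 2-fold or more apart between day 5 and day 7 in the control library that went 2-fold or more the opposite way in the heme library were Ccr7 (log2 ratio 1.29 in the control and -1.55 in the heme library), Il4i1 (1.00 and -2.45), Cacnb3 (1.48 and -1.67), Tnfrsf9 (2.29 and -1.40), Tmem176a (1.94 and -1.74), Tmem176b (1.93 and -1.35), Cxcl3 (1.76 and -1.75) and Slc40a1 (-2.81 and 1.05). Each library held 1 culture per day, and the difference between libraries was not tested.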

How the results depend on the processing

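Rescaling by TMM, DESeq2 size factors or totals without mitochondrial and ribosomal protein genes moved all log2 ratios by 0.03, 0.02 and 0.07 and kept both gene counts within 1.5 times, as did the study's cell limits. The counts of higher and lower genes were 354 and 334 with each cell weighted equally, 352 and 311 at a mean of 1 CPM, and 1003 and 1006 with 1 UMI in each day. Of the 2 alternatives chosen after seeing the data, cells below the S100a8 and S100a9 limit gave 138 and 73 (65.4% of the calls higher against 48.9%), and standardising over the 10 clusters with 50 or more cells on both days gave 57 and 41.

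The secondary granule median of -4.11 became -4.36 under the study's cell limits, -3.92 with equal cell weights, -0.051 below the limit and -0.71 over clusters. The mature neutrophil median of -1.93 became -0.22 below the limit and -0.23 over clusters. That list holds S100a8 and S100a9, whose own values below the limit are constrained by it. The MHC class II median of 0.41 became 0.48 without mitochondrial and ribosomal protein genes, 0.53 under the study's limits, 1.02 with equal cell weights, 0.024 below the limit and 0.12 over clusters. The DC maturation median of 0.59 became 0.92 with equal cell weights, 0.29 below the limit and, reversed, -0.12 over clusters. The cell cycle median of -0.50 became -0.37 under the study's limits, -0.23 with equal cell weights, -0.64 below the limit and -0.14 over clusters.

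The change in the neutrophil-like share was -39.5 points, and it was -30.4 with marker scores per cell, -36.5 at resolution 0.5, -45.6 at resolution 2 and -48.1 under the study's limits. The mature DC-like share rose by 16.3 points, and by 13.8 with marker scores and 12.9 under the study's limits. The macrophage-like share rose by 8.37 points, and by 9.81 with marker scores, 4.97 at resolution 2 and 6.25 with 30 components; at resolution 0.5 no cluster carried that name. The cause of these shifts was not tested beyond what each setting changes by construction. No paired analysis was possible because each day has 1 culture and the labels carry no replicate numbers. Day 7 cells above the S100a8 and S100a9 limit numbered 104, which limits the values within them.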
